A study of Trichoderma reesei with 12 samples.

Results

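In the filamentous fungus Trichoderma reesei, 54 of 10879 gene identifiers were at least 3-fold higher in constant light than in darkness in a strain that has tmk3, and nearly level between the conditions in a strain that lacks it. Tmk3 is a mitogen-activated protein kinase of the Hog1 type. The 54 were chosen from group means of CPM (counts scaled to a common library total). The highest of 4 group means had to reach 10 CPM. The ratio of light to darkness, with 1 CPM added to each mean, had to be at least 3 in the parent and between 0.67 and 1.5 in the deletion strain. Identifiers within 50 numbers of an end of their letter series were left out. The light difference in each strain, and the difference between those differences, therefore chose the members and are described below without a test.

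Mycelium was grown on cellulose for 96 h at constant light or constant darkness, with 3 libraries in each of 4 groups. Every group carries the ku80 deletion: the parent is QM6a-delta-ku80, labelled WT, and the second strain is QM6a-delta-ku80-delta-tmk3. A complemented strain and a second deletion isolate were not analysed here, so an effect of losing tmk3 and any further change that separates the strains cannot be told apart. Separate cultures for the replicates are not stated in the labels, so the p-values cover the spread among these libraries, part of which may be technical.

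Hog1-type kinases carry osmotic and other stress signals in fungi, as first worked out in the yeast Saccharomyces cerevisiae. In Aspergillus nidulans the kinase of this type also passes on red light signals received by a phytochrome. In Trichoderma, blue light is sensed by BLR1 and BLR2, relatives of the Neurospora white collar proteins, and light is known to change how strongly genes for cellulose breakdown are expressed. None (0) of the identifiers matched the 9116 entries of the RefSeq gene table of the v2.0 assembly, and the count table gives no gene names. Roles of single members, their sequences, fungal markers and the tmk3 transcript itself could therefore not be read here.

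Libraries held between 11599300 and 17702344 counts, and the members were well covered: the lowest value of any member in any library was 3 counts, and 6 of 648 member values were under 10. Replicate 2 of the dark parent stood apart, with a scaling factor by the trimmed mean of M values (TMM) of 0.761 against 0.925 to 1.11 in the other 11 libraries. Of the 54 members, 38 had their lowest dark parent value in that library, beside 66.2% of all 8998 genes tested. Without it, 39 of the 54 still met the rule, and with CPM from TMM-scaled library sizes 38 did. Its part in the light difference of the other members was not tested.

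The members were 20.6% of the 262 identifiers that met the level limit and the parent limit outside the series ends. Of the other identifiers among the 262, 12 had a ratio below 0.67 in the deletion strain, 91 lay between 1.5 and 3, and 105 were at least 3-fold higher in light there too. The members thus lie in the lower part of one continuous distribution of ratios with a median of 2.41, and no gap separates them from the rest. At the limits, TrF0185W was inside with a parent ratio of 3.001 and TrD0391C outside with 2.986. TrB1798W was inside with a deletion strain ratio of 1.49 and TrF0407C outside with 1.51. TrF0381W was inside with 0.678 and TrB1262C outside with 0.661. TrC0786W was inside with a highest group mean of 11.1 CPM and TrC1203C outside with 9.45 CPM.

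**Figure D1:**
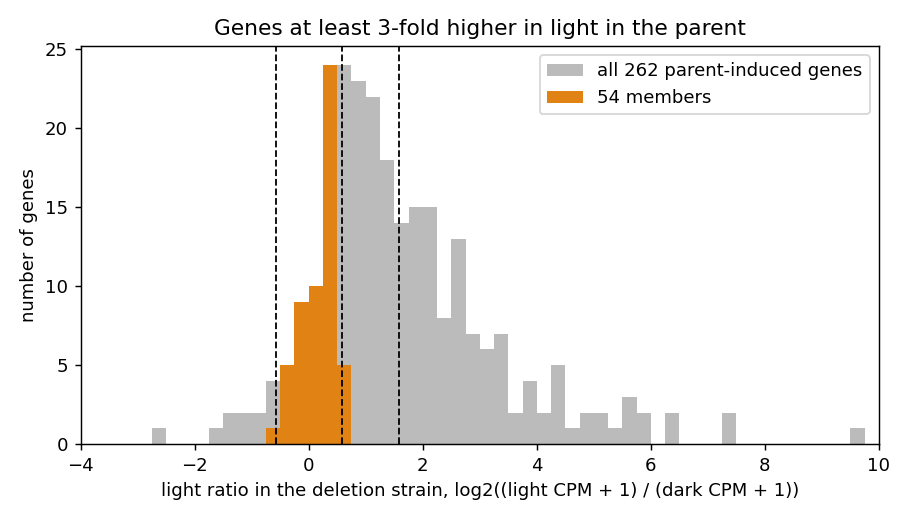
Light ratio in the deletion strain (x axis, log2 of light over dark with 1 CPM added) for the 262 identifiers at least 3-fold higher in light in the parent (grey, number of genes on the y axis), with the 54 members in orange and dashed lines at ratios of 0.67, 1.5 and 3. The members form the left shoulder of a single broad distribution, and 105 of the 262 lie at or beyond the rightmost line.

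In the parent, the ratio of members ran from 3.001 to 20.8 with a median of 4.11. It was at least 5 in 14 members and at least 10 in 3. All 3 light libraries lay above all 3 dark libraries in 54 of 54 members, which happened in 30.2% of all genes tested, and 54 were called higher in light by edgeR's quasi-likelihood test (20.8% of all genes). The rule fixed this contrast, so nothing is read from these counts. In the deletion strain the ratio had a median of 1.19, and 39 of 54 members had the higher mean in light. Light libraries there lay above all dark libraries in 25 members (29.4% of all genes) and below all of them in 4 (32.5% of all genes), and 8 were called higher in light (17.7% of all genes). The window of the rule thus holds members with a small light difference as well as members with none that passed the test. The interaction was called lower in 46 members (7.71% of all genes) and higher in 0 (6.39% of all genes), again a contrast that the rule fixed.

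The 2 ratios of the rule do not state whether the level that members held without tmk3 was close to the dark or to the light level of the parent. This was measured by the average strain difference, the log2 mean of the deletion strain over darkness and light minus that of the parent. This contrast is orthogonal to both light differences and to the interaction, but it uses the same 4 group means and is not fully free of the rule. The dark parent was the most variable group, and the choice of a low dark parent mean can raise the contrast. The level limit acts on it too: 43 members reached 10 CPM in both strains, 10 in the parent only and 1, TrA0907C, in the deletion strain only. The counts below are therefore a description of the members. With edgeR's quasi-likelihood test, adjusted over all 8998 genes, 24 of 54 members were higher on average without tmk3 (44.4%, beside 19.7% of all genes). Another 16 were lower (29.6%, beside 20.4%), and 14 were not called. Among the 43 that reached 10 CPM in both strains, a choice made after seeing the data, 23 were higher and 7 lower. That choice took out 9 members called lower and 1 called higher. No share of all genes under the same limit is given, so nothing is read from these counts. The other 9 called lower reached it in the parent only, so their light level without tmk3 had to be the lower one. The median average difference was 0.13 over the members and -0.05 over all genes tested. With libraries scaled by total count alone, which raised the median of all genes by 0.20, 25 members were higher and 11 lower, and 0 members called in both fits changed direction. Among all genes that scaling moved the share of calls that were higher from 49.1% to 71.1%.

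The level without tmk3 was also placed on a scale for each member, on which 0% is the dark level and 100% the light level of the parent, on log2(CPM + 1). This scale was added after the values were seen and carries no test. It uses CPM by column total, which sets the deletion strain higher than TMM scaling does. TMM factors were 1.04 to 1.11 in the deletion libraries and 0.761 to 1.01 in the parent libraries. Among all genes, scaling by total count alone raised the median average strain difference by 0.20. The class of members near the dark level, the midpoint or the light level can therefore depend on the scaling. Positions ran from -139.3% to 157.3% with a median of 62.8%. In 9 members the deletion strain lay below the dark level of the parent, in 11 between the dark level and the midpoint, in 19 between the midpoint and the light level, and in 15 above the light level. As a mean over the 2 conditions, the level without tmk3 thus ranged from under the dark level to over the light level of the parent. This mean does not place each condition by itself. TrG0295C, at 101.3%, held 92.89 ± 11.25 CPM in light without tmk3, against 102.6 ± 8.805 CPM in the light parent (SD, n = 3). Fewer cells expressing a gene and less RNA per cell cannot be told apart in these bulk samples.

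**Figure D2:**
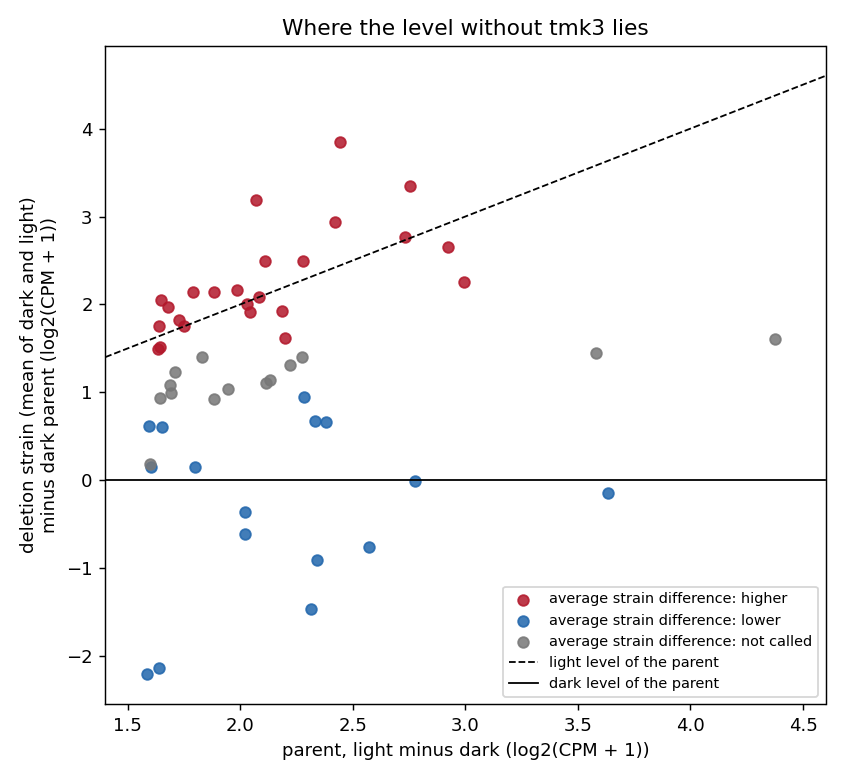
Level of the deletion strain above the dark parent (y axis, log2(CPM + 1), mean of darkness and light) against the light minus dark difference of the parent (x axis, same scale), 1 point per member. Red points (24) were higher and blue points (16) lower in the average strain difference, grey points (14) were not called. The solid line is the dark level and the dashed line the light level of the parent, and points spread from below the former to above the latter.

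The 24 members called higher were lowest in the dark parent, whose 3 libraries lay below all other libraries. Their median group means were 7.36 CPM in the dark parent, 31.9 CPM in the light parent, 32.7 CPM in the dark deletion strain and 40.9 CPM in the light deletion strain. In 24 of 24 the 6 deletion libraries were all above the 3 dark parent libraries, an order found in 24.2% of all genes. The choice of members and the call largely fix this order, so nothing is read from it. The strains differed in darkness by a median log2 value of 1.78 (range 1.12 to 3.84) and in light by 0.18 (range -0.83 to 1.62). The average difference was at least 2-fold in 12 of the 24.

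TrG0255W had the largest average difference. It held 0.962, 3.26 and 0.720 CPM in the dark parent libraries and 14.4, 15.1 and 10.6 CPM in the light ones. The deletion strain held 32.6, 30.8 and 29.0 CPM in darkness and 45.0, 43.1 and 45.0 CPM in light. All 6 deletion libraries were thus above every parent library, dark or light, and the dark parent stood lowest. The average difference was 2.73 on the log2 scale (SE 0.31, edgeR adjusted p = 6.9e-05), and 2.53 to 3.30 with any 1 library left out.

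TrA0907C followed the same order of groups, from 1.502 ± 0.570 CPM in the dark parent to 9.51 ± 2.66 CPM in its light libraries, and 19.1 ± 2.69 and 24.7 ± 2.54 CPM without tmk3 (SD, n = 3). Its average difference was 2.33 (SE 0.18, edgeR adjusted p = 4.5e-06). TrA1456W was highest in the dark deletion strain, with 34.0, 38.3 and 31.5 CPM, and next in the light deletion strain, with 24.1, 26.8 and 26.0 CPM. Its parent libraries held 3.21, 0.877 and 2.02 CPM in darkness and 17.1, 20.6 and 20.8 CPM in light, so that none of the 4 groups overlapped. The average difference was 2.05 (SE 0.19, edgeR adjusted p = 1.6e-05).

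TrA1929W had nearly equal means in the deletion strain, 50.7 ± 5.58 CPM in darkness and 49.4 ± 3.32 CPM in light (SD, n = 3). In the parent it went from 5.68 ± 1.72 to 34.8 ± 2.76 CPM, below all deletion libraries in both conditions, and the average difference was 1.64 (SE 0.11, edgeR adjusted p = 1.7e-06). TrB1326C stayed near the light level of the parent: 18.3 ± 1.10 CPM in the light parent stood beside 13.0 ± 2.86 and 17.4 ± 2.14 CPM without tmk3. The dark parent had 1.55 ± 0.722 CPM, and the average difference was 1.31 (SE 0.17, edgeR adjusted p = 0.00016). TrD0996W, the most abundant of the 24, held 75.5, 63.7 and 74.1 CPM in the dark parent and 449.1, 164.3 and 317.2 CPM in the light parent. The deletion strain held between 354.6 and 462.4 CPM in its 6 libraries, so that only replicate 1 of the light parent reached its range. The average difference of TrD0996W was 1.24 (SE 0.20, edgeR adjusted p = 0.00055).

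TrD0155C stood lower on the scale, at 75.2%. Its deletion libraries lay between the 2 parent groups, with 129.9, 155.6 and 191.8 CPM in darkness and 205.3, 222.6 and 204.0 CPM in light, against 37.6 ± 9.60 and 306.7 ± 15.3 CPM in the parent (SD, n = 3). TrD0155C had an average difference of 0.58 (SE 0.11, edgeR adjusted p = 0.0015). TrB1798W, at the upper limit of the rule, went from 8.57 ± 1.15 to 13.3 ± 1.10 CPM in the deletion strain and its 3 light libraries lay above its 3 dark ones. TrB1798W met the rule in 6 of 12 choices that left out 1 library, and neither without replicate 2 of the dark parent nor with TMM-scaled CPM. Also called higher, with positions between 87.9% and 124.5%, were TrE0560W, TrC0453W, TrD1207W, TrG1132W, TrA0745W, TrE0127W, TrG0295C, TrA1254W, TrF0589C, TrF0429W, TrG0981W, TrG0588C, TrB0513C, TrB1841C and TrF0590C.

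**Figure D3:**
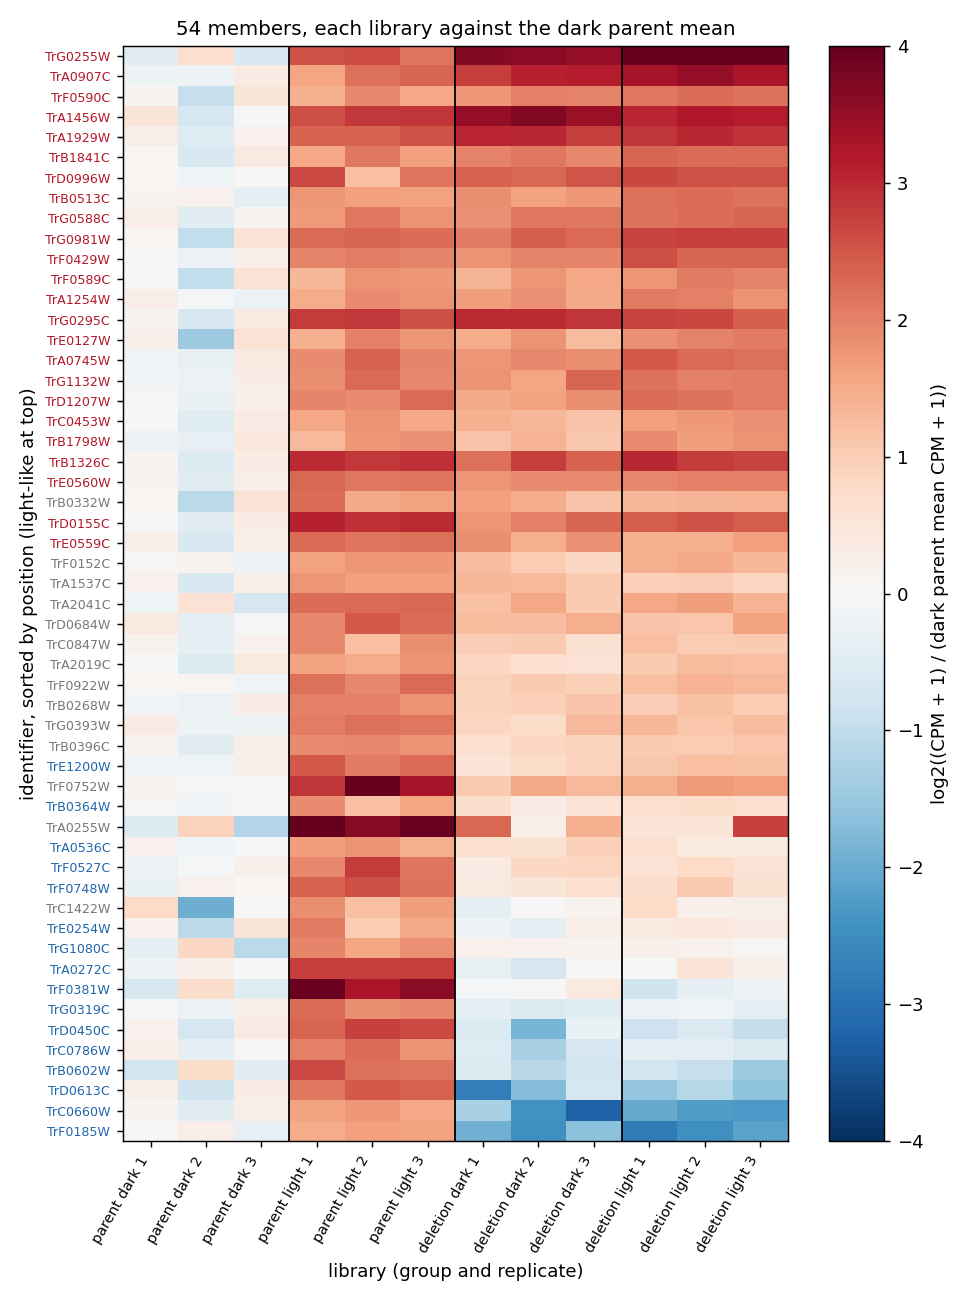
Every library (columns, by group and replicate) for the 54 members (rows, by falling position), as log2((CPM + 1) / (dark parent mean + 1)) with colours saturating at -4 and 4. Row names are red for the 24 called higher, blue for the 16 called lower and grey for the 14 not called in the average strain difference. The 3 light parent columns are red throughout, while the 6 deletion columns go from red at the top to blue at the bottom.

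The 16 members called lower were highest in the light parent, whose 3 libraries lay above all other libraries. Their median group means were 10.8 CPM in the dark parent, 37.9 CPM in the light parent, 8.34 CPM in the dark deletion strain and 9.18 CPM in the light deletion strain. In 16 of 16 the 6 deletion libraries were all below the 3 light parent libraries (10.0% of all genes), an order that the choice of members and the call again largely fix. The strains differed in light by a median log2 value of -2.54 (range -5.06 to -1.04) and in darkness by -0.46 (range -2.93 to 0.54). The average difference was at least 2-fold in 10 of the 16. In 2 of them, TrF0185W and TrC0660W, the deletion libraries were also all below the dark parent libraries (8.19% of all genes).

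TrF0185W held 10.8, 13.4 and 8.57 CPM in the dark parent and 32.3, 36.4 and 35.8 CPM in the light parent. Without tmk3 it held 2.15, 1.20 and 2.79 CPM in darkness and 0.690, 1.19 and 1.69 CPM in light. The lowest of these is 8 counts, and no deletion library reached any parent library. The average difference was -3.85 (SE 0.27, edgeR adjusted p = 2.3e-06), the largest fall among the members. TrF0185W lies at the 3-fold limit. It met the rule in 6 of 12 choices that left out 1 library, and not with TMM-scaled CPM.

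TrC0660W differed between the strains in a similar way, with 10.7 ± 2.68 and 35.4 ± 2.39 CPM in the parent and 1.74 ± 1.82 and 1.59 ± 0.280 CPM without tmk3 (SD, n = 3). Its dark deletion libraries were uneven, with 49, 17 and 4 counts. TrC0660W met the rule in 9 of 12 choices that left out 1 library, and neither without replicate 2 of the dark parent nor with TMM-scaled CPM. The average difference was -3.76 (SE 0.41, edgeR adjusted p = 5.1e-05). TrD0613C was uneven in the same group, with 3, 22 and 68 counts, or 0.231, 1.55 and 4.12 CPM. Replicate 3 of the dark deletion strain thus reached the lowest dark parent value of 3.89 CPM, while the light parent stood far above at 40.8 ± 4.94 CPM. TrD0613C had an average difference of -3.23 (SE 0.43, edgeR adjusted p = 0.00018).

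TrF0381W had the second largest parent ratio, 12.4. It held 0.770, 3.57 and 1.01 CPM in the dark parent, 42.1, 25.7 and 32.8 CPM in the light parent, and between 0.604 and 2.67 CPM in the 6 deletion libraries. The deletion strain thus overlapped the dark parent and stayed below every light parent library. The average difference of TrF0381W was -2.61 (SE 0.42, edgeR adjusted p = 0.00056), and it met the rule in 8 of 12 choices that left out 1 library. TrB0602W was likewise highest in the light parent, with 2.87 ± 2.26 and 18.6 ± 3.82 CPM in the parent and 1.22 ± 0.421 and 0.916 ± 0.446 CPM without tmk3, and an average difference of -3.03 (SE 0.43, edgeR adjusted p = 0.00026). In both, replicate 2 held the highest dark parent value. TrC0786W, at the level limit, held 11.1 ± 1.78 CPM in the light parent and 0.712 ± 0.448 and 1.19 ± 0.154 CPM without tmk3, with an average difference of -2.52 (SE 0.29, edgeR adjusted p = 7.4e-05).

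TrE0254W was the most abundant member. Its dark parent libraries held 685.4, 283.8 and 843.5 CPM and its light parent libraries 2545, 1225 and 1740 CPM. The deletion strain held 521.3, 475.8 and 732.3 CPM in darkness and 767.8, 805.9 and 760.2 CPM in light, within the range of the dark parent. Its average difference was -0.83 (SE 0.23, edgeR adjusted p = 0.015), and with libraries scaled by total count alone -0.65 (edgeR adjusted p = 0.059). Without replicate 2 of the dark parent, or with TMM-scaled CPM, TrE0254W no longer met the rule. The remaining members called lower, with positions from -29.6% to 41.4%, were TrD0450C, TrG0319C, TrA0272C, TrG1080C, TrF0748W, TrF0527C, TrA0536C, TrB0364W and TrE1200W.

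**Figure D4:**
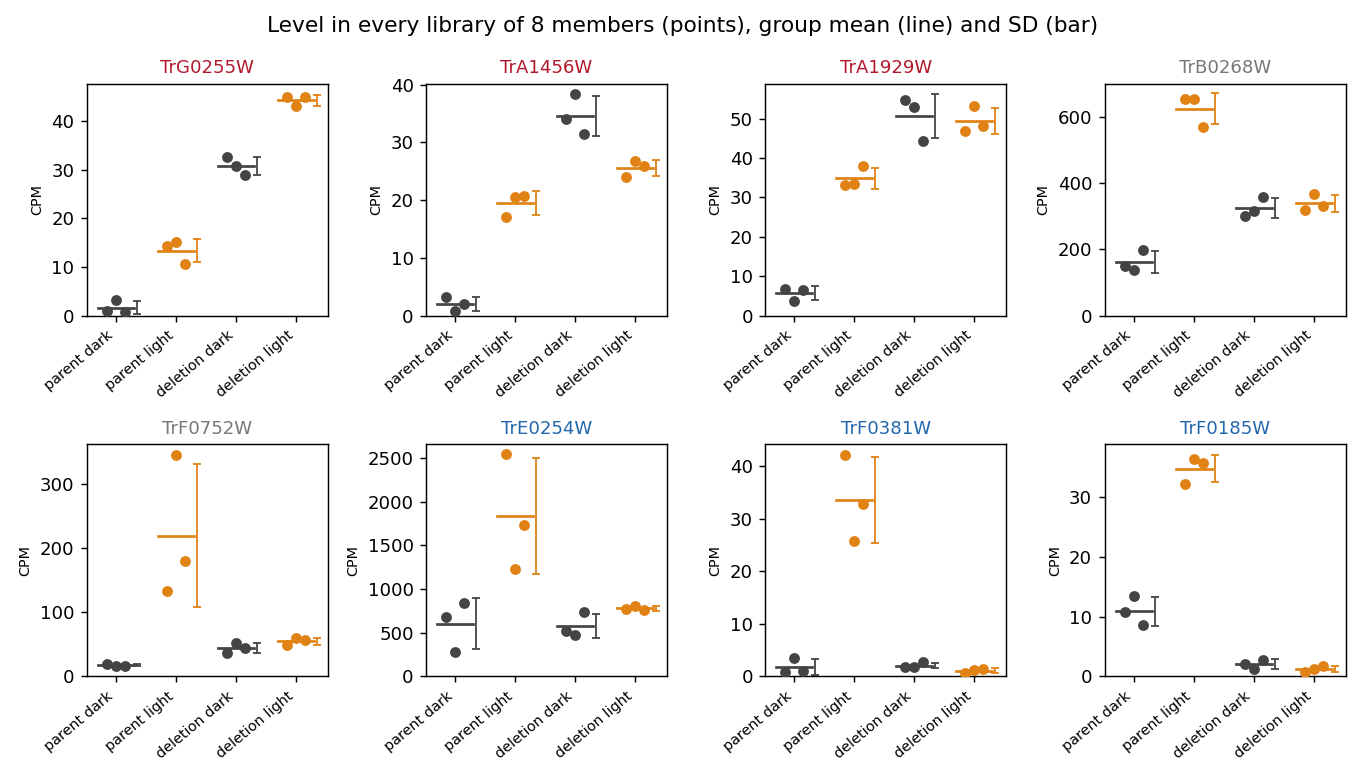
CPM of 8 members in every library (points, 3 per group), with the group mean (line) and SD (bar). TrG0255W, TrA1456W and TrA1929W (red) were lowest in the dark parent, TrE0254W, TrF0381W and TrF0185W (blue) were highest in the light parent, and TrB0268W and TrF0752W (grey) lay between the 2 parent levels without tmk3.

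The 14 members not called had positions from 11.7% to 76.3%, which overlapped those of both called groups. In 10 of them all 6 deletion libraries were above every dark and below every light parent library, an order found in 1.08% of all genes and favoured by the choice of members. TrB0268W held 149.2, 137.6 and 198.6 CPM in the dark parent and 653.5, 654.2 and 570.6 CPM in the light parent. Without tmk3 it held 300.8, 315.8 and 359.1 CPM in darkness and 320.5, 368.7 and 330.7 CPM in light, apart from both parent groups. Its average difference of -0.13 (SE 0.09, edgeR adjusted p = 0.24) reflects a level near the midpoint. It does not mean equal levels, since the strains differed by 0.72 in darkness and by -0.99 in light on the log2 scale.

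TrB0396C and TrC0847W, also among the 5 most abundant members in the light parent, had the same order of means. TrB0396C went from 130.6 ± 30.9 to 483.7 ± 22.5 CPM in the parent and from 228.3 ± 17.3 to 273.1 ± 10.97 CPM in the deletion strain (SD, n = 3). TrC0847W went from 134.2 ± 26.0 to 436.2 ± 112.9 CPM in the parent and from 249.3 ± 38.9 to 287.9 ± 19.8 CPM in the deletion strain. TrB0396C had an average difference of -0.20 (edgeR adjusted p = 0.060). It was called at -0.25 (edgeR adjusted p = 0.0084) without replicate 2 of the dark parent, at -0.23 (0.042) without replicate 3 of the light parent and at -0.24 (0.039) without replicate 3 of the light deletion strain. It was also called with DESeq2, at -0.22 (adjusted p = 0.013), and with no filter on low counts, at -0.22 (edgeR adjusted p = 0.034). With libraries scaled by total count alone, its average difference was -0.0093 (edgeR adjusted p = 0.96), so that its status depends on the method. TrC0847W had -0.05 (edgeR adjusted p = 0.77), and met the rule neither without replicate 2 of the dark parent nor with TMM-scaled CPM.

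TrA0255W had the largest parent ratio, 20.8, and the highest coefficients of variation of all members in the 2 light groups, 58.2% in the parent and 96.2% in the deletion strain. Its light parent libraries held 398.3, 141.6 and 177.3 CPM and its dark parent libraries 6.86, 20.7 and 4.10 CPM. Without tmk3 it held 55.2, 12.3 and 30.2 CPM in darkness and 16.0, 15.6 and 75.2 CPM in light, so the 2 conditions overlapped widely. Its average difference was -0.81 (SE 0.59, edgeR adjusted p = 0.29). Its size was -0.25 when replicate 2 of the dark parent was left out, -0.52 without replicate 1 of the light parent and -1.45 (edgeR adjusted p = 0.076) without replicate 3 of the light deletion strain.

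TrF0752W, with a parent ratio of 11.9, was also uneven in the light parent, at 133.1, 346.1 and 181.0 CPM against 17.5 ± 1.51 CPM in darkness. It held 44.6 ± 7.55 and 54.9 ± 5.33 CPM without tmk3 (SD, n = 3), between the 2 parent groups. The average difference of TrF0752W was -0.53 (SE 0.20, edgeR adjusted p = 0.055). It was -0.30 with replicate 2 of the light parent left out. It was called at -0.66 (edgeR adjusted p = 0.012) without replicate 1 of the light parent and at -0.58 (0.046) without replicate 3 of the dark parent. With DESeq2 it was called at -0.54 (adjusted p = 0.029), with the replicate block at -0.50 (edgeR adjusted p = 0.036) and with no filter at -0.55 (edgeR adjusted p = 0.0498). Also not called were TrC1422W, TrG0393W, TrF0922W, TrA2019C, TrD0684W, TrA2041C, TrA1537C, TrF0152C and TrB0332W.

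The spread between replicates differed by group. The median coefficient of variation of members was 30.6% in the dark parent, 14.4% in the light parent, 13.6% in the dark deletion strain and 8.41% in the light deletion strain. All genes tested had medians of 28.3%, 13.1%, 12.8% and 7.84% in the same order. Summed over the members, the dark parent libraries held 1189 to 2096 CPM, the light parent libraries 5989 to 7847 CPM, the dark deletion libraries 3339 to 3725 CPM and the light deletion libraries 4122 to 4233 CPM. None of these ranges overlapped. The rule fixed the order of the parent sums and keeps the deletion sums close to each other, so nothing is read from this. TrE0254W alone held means of 604.2 and 1837 CPM in the dark and light parent. In the deletion strain it held 576.5 and 778.0 CPM, so its share of the sum differs by group.

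How far membership itself holds was read in libraries not used for the choice. Choosing by 2 replicate numbers in every group and reading the left-out library of each group, 68, 60 and 72 identifiers were chosen, and 27, 29 and 27 of them met both ratio limits in the left-out libraries. The parent ratio there exceeded 1 in 68 of 68, 56 of 60 and 72 of 72, with medians of 3.46, 4.78 and 3.02. The exact limits were thus met by a minority of the chosen identifiers. A parent ratio over 1 is a weak criterion: its median was 1.09 over all identifiers that met the level limit outside the series ends. Of the chosen identifiers, 48, 38 and 45 were among the 54 members. No share over all genes is given for these counts, so they cannot be judged against it. The median of 4.78 was read with replicate 2 of the dark parent, the lowest library of its group for 66.2% of all genes tested. Of the 54 members, 31 met the rule in every choice that left out 1 library and with TMM-scaled CPM. Among these, 17 were called higher, 7 lower and 7 not called.

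From the form of the identifiers, adjacent numbers in a series were taken to be neighbours, and a final W or C to be the strand. Members lay in all 7 series. Of identifiers that met the level limit outside the series ends, they were 11 of 1443 in series A and 9 of 1327 in B. The counts were 5 of 1051 in C, 6 of 882 in D and 5 of 854 in E. Series F had the largest share, with 10 of 625, and G had 8 of 742, against 54 of 6924 in all. Whether the series differ was not tested. A final W was found in 32 of 54 members (59.3%), beside 49.5% of the identifiers that met the level limit outside the series ends. Only 6 members lay within 5 numbers of another, in 3 pairs. TrE0559C and TrE0560W, first of these in identifier order, are consecutive and, by their letters, point away from each other. TrE0559C held 5.92 ± 2.04 and 30.8 ± 1.504 CPM in the parent and 21.9 ± 3.34 and 18.7 ± 1.65 CPM without tmk3. TrE0560W held 9.71 ± 2.53 and 47.7 ± 3.73 CPM in the parent and 37.7 ± 1.85 and 41.4 ± 1.60 CPM without tmk3 (SD, n = 3).

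Both were called higher, TrE0560W with an average difference of 0.68 (SE 0.09, edgeR adjusted p = 0.00016) and TrE0559C with 0.40 (SE 0.14, edgeR adjusted p = 0.040). The call of TrE0559C was lost, at values between 0.34 and 0.42 (edgeR adjusted p from 0.059 to 0.086), without any 1 of the 3 light parent libraries, any 1 of the 3 light deletion libraries, or replicate 1 or 3 of the dark deletion strain. The identifier before them, TrE0558C, had a parent ratio of 2.53, below the limit of 3, and a deletion strain ratio of 1.37. It was called higher in light in the parent. The identifier after them, TrE0561C, had ratios of 1.64 and 1.03 and was not called there. The other pairs were TrF0589C with TrF0590C, both called higher, and TrF0748W with TrF0752W, of which the first was called lower.

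Of 104 identifiers directly beside a member that were no members, 85 could be tested. In the parent 26 of them (30.6%, beside 20.8% of all genes) were called higher in light and 22 (25.9%, beside 26.7%) lower. The average strain difference was called higher in 19 (22.4%, beside 19.7%) and lower in 17 (beside 20.4%). Apart from the rises in light, these shares were near those of all genes. Among neighbours that point away from the member, 9 of 23 tested were called higher in light in the parent and 4 lower. Over all genes, whatever their direction, these shares were 20.8% and 26.7%. No share is given for all genes that point away from a neighbour, so nothing is read from the 23. One of these neighbours, TrD0614W beside TrD0613C, was singled out after its values were seen. It had a parent ratio of 3.84 and a deletion strain ratio of 0.961, and stayed below the level limit at 5.90 ± 1.49 CPM in the light parent (SD, n = 3). TrA0537C beside TrA0536C, singled out in the same way, had ratios of 3.44 and 0.857 at 7.67 ± 2.92 CPM in the light parent. Among neighbours in any direction, 3 met the level limit with a parent ratio of at least 3, and all of them were also higher in light without tmk3. Parent and deletion strain ratios were 3.27 and 1.99 in TrA0906W, 3.54 and 2.31 in TrC0452C, and 3.34 and 1.81 in TrF0153W. Whether reads of neighbouring genes were counted by strand is not given in the sources used here.

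For comparison, 105 identifiers were at least 3-fold higher in light in both strains. Their average strain difference was called higher in 21 (20%, beside 19.7% of all genes) and lower in 40 (38.1%, beside 20.4%). Its median was -0.31, and the share called higher was near that of all genes. The members had 24 and 16 of 54 (44.4% and 29.6%), with a median of 0.13. Whether these lists differ was not tested, since genes of a list are not replicates.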

How the data were processed

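The authors deposited raw counts, whole numbers for each gene model and library. The submitters' processing notes name HISAT2 2.2.1, and the labels' protocols name a stranded kit with ribosomal RNA depletion. How reads were counted (version, strand, filters) is not given in the sources used here. Columns were assigned to samples by label, and 0 columns were unused.

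Members were chosen on CPM by column total. Counts were fitted in R 4.3.3 with edgeR 4.0.16: filterByExpr left 8998 genes, all 54 members among them, libraries were scaled by TMM, and 4 group means were fitted to 12 libraries. The average strain difference was tested with the quasi-likelihood F test, with p-values adjusted by Benjamini-Hochberg over all genes and a threshold of 0.05. The SE is approximate, the size of the log2 fold change over the root of F. Printed levels are CPM by column total, mean ± SD. The procedure was tested on simulated data with a common mean per gene, equal strain shifts in darkness and light, and the same spread in all groups. No light difference was simulated and the rule was not applied. The simulation therefore does not cover calls among members chosen by the rule, or the larger spread of the dark parent. DESeq2 1.42.0 was an alternative.

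The members and lists were chosen with earlier results of these data known. Named members were, by rule, up to 5 in each direction with the largest called average difference, the 5 most abundant in the light parent, the 5 with the largest parent ratio, those at the limits, and the longest run of neighbours. The other members are given as groups.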

Additional observations from a re-analysis of the deposited data

How the results depend on the processing

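Over all alternatives tried, 0 members called in the average strain difference were called in the opposite direction. With 1 library left out, the members called higher numbered 22 to 26, those called lower 14 to 18, and all genes called 2986 to 4242. At an adjusted p below 0.01 the counts were 21 and 12, and 2301 genes in all against 3604. DESeq2 gave 24 and 19, no filter on low counts 24 and 18. Of the members that also met the rule with TMM-scaled CPM, 19 were higher and 10 lower, and of those at 10 CPM in each strain 23 and 7. Without replicate 2 of the dark parent in rule and fit, 20 and 13 were. These alternatives on subsets and on that library were chosen after seeing the data. Asking for 10 CPM in each strain took out 9 members called lower and 1 called higher.

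No pairing by replicate number was seen: 1 of 18 same-numbered pairs had a correlation of deviations over 0.1. The best correlated library had the same number in 10 of 36 choices. Whether same-numbered samples were handled together cannot be read from this. With the replicate block, 23 members were higher and 17 lower, and 3178 genes were called in all.

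The number of members was 30 at a parent ratio of at least 4, 29 with a narrower window for the deletion strain, 40 with TMM-scaled CPM, and 47 to 72 with 1 library left out. When 2 replicate numbers were used for the choice, 37.5% to 48.3% of the chosen identifiers met both ratio limits in the left-out libraries. Near a value of 0, the average difference of TrB0268W changed sign to 0.063 with total-count scaling, and that of TrC0847W to 0.15 with that scaling, 0.017 without replicate 1 of the light parent and 0.0029 when replicate 3 of the dark deletion strain was left out. With 1 library left out it ranged from -0.16 to 0.017. None of these passed the test, and the cause was not tested. Low counts limit members near 1 CPM in the deletion strain.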
